A study of Mus musculus with 18 samples.

Results

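The regions described here are 1591 narrow stretches of chromatin that carried histone H3 acetylated at lysine 9 (H3K9ac) far from protein-coding genes. They were chosen by merging peaks that overlapped by 1 bp or more in 8 H3K9ac peak lists. A merged region was kept if it was narrower than 2000 bp, held a peak in 6 or more of the 8 libraries, lay outside every RefSeq protein-coding gene and was more than 5 kb from the nearest gene end. They make up 1.52% of the 104737 merged regions and 8.34% of the 19087 regions found in 6 or more libraries. Presence of a peak, width and distance were used to choose them, so these are given as a description with no test.

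The libraries came from whole cortex of mouse embryos at E15.5, all of genotype BAF155 cKO, a conditional knockout of a core subunit of the BAF chromatin remodelling complex (encoded by Smarcc1). The embryos' groups were Vehicle and TSA (trichostatin A, an inhibitor of histone deacetylases), with 4 RNA and 4 H3K9ac libraries in each. Which Cre line or promoter drove the deletion, how TSA was given and whether replicates were separate animals are not stated in the labels, and p-values reflect only how far these libraries spread. Every comparison is TSA against Vehicle within the knockout, and cortex without the knockout was not analysed here.

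H3K9ac is laid down by acetyltransferases and removed by histone deacetylases, and it is concentrated at active promoters, with weaker deposits at active enhancers. A narrow region far from any protein-coding gene may therefore lie at an enhancer, at the start of a long noncoding RNA (lncRNA), or at another kind of noncoding gene. Enhancers can act over long distances and skip genes, so the nearest gene is a statement of position and not of control.

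Start windows of 5 lncRNAs at or beside such regions are printed as examples. Each window runs from 250 bases before to 50 bases after an annotated RefSeq start on GRCm38.p6, printed 5′ to 3′ on the strand of the gene. Capitals mark matches, on either strand, to a GC box (GGGCGG), an ETS core (CCGGAAG) or a CRE (TGACGTCA). Malat1, an abundant nuclear lncRNA, and Chaserr, an lncRNA upstream of Chd2, were chosen because their starts lie beside regions found in all 8 libraries. Snhg5, a host of small nucleolar RNAs, Mir22hg, the host transcript of miR-22, and 2600014E21Rik were chosen because their RNA passed the test described below.
Malat1, chr19:5802623-5802922, minus strand: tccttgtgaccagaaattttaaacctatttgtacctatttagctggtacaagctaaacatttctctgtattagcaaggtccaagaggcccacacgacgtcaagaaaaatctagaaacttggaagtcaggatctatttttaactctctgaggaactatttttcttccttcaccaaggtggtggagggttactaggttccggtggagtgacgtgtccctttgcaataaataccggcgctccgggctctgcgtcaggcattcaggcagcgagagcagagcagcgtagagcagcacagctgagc
Chaserr, chr7:73558346-73558645, minus strand: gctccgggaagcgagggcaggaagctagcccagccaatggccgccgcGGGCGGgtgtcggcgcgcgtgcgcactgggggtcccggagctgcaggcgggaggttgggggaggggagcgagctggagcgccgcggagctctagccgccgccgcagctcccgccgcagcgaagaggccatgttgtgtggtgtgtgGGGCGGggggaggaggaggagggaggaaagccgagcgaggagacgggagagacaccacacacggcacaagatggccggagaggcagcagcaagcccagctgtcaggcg
Snhg5, chr9:88522848-88523147, minus strand: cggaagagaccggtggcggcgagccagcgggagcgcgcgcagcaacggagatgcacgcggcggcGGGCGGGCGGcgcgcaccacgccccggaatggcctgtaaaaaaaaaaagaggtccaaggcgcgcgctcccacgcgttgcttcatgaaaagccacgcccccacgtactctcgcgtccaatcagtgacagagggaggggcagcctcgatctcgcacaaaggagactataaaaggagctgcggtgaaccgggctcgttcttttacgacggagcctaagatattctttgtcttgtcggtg
Mir22hg, chr11:75461289-75461588, plus strand: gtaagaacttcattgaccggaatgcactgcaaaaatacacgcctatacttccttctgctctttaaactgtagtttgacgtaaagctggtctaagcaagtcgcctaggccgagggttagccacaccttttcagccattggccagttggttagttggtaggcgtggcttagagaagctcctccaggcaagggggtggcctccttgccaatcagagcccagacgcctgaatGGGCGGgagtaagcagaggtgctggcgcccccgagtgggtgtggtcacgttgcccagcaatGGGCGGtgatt
2600014E21Rik, chr2:75137405-75137704, plus strand: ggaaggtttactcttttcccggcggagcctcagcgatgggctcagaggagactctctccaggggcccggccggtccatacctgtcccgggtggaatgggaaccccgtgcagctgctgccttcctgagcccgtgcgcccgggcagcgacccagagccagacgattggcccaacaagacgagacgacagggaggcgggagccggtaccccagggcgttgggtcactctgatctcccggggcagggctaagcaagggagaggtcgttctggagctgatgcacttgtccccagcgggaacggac

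The Malat1 start lay 79 bp from a region at chr19:5802751-5803618, and the Chaserr start lay 408 bp from a region at chr7:73558803-73559586. The starts of Snhg5 and 2600014E21Rik fell inside their regions, at chr9:88521302-88522937 and chr2:75137443-75138106. The Mir22hg start lay 52 bp from the region at chr11:75461591-75462785. By coordinate, the printed windows of Chaserr and Mir22hg stop short of their regions and hold no base of them. GC content ran from 47.0% in the Malat1 window to 72.3% in the Chaserr window. The GC box occurred in the windows of Chaserr, Snhg5 and Mir22hg, and no letters of the 3 motifs were found in those of Malat1 and 2600014E21Rik.

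MicroRNA genes were the other annotated sequences with short, well-defined products. Of 1005 mouse hairpins in the RefSeq table, 45 lay within 10 kb of an intergenic region, 11 within 1 kb and 4 inside, counts that cover only the hairpins of that table, which does not hold every annotated one. Mature sequences are printed below for hairpins inside or near regions, with the seed (bases 2 to 8) in capitals, because the seed groups them into families.
let-7i-5p: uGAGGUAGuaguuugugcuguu
let-7a-5p: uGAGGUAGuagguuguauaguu
let-7d-5p: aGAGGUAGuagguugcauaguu
let-7f-5p: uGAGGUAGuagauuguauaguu
miR-17-5p: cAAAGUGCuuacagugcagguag
miR-20a-5p: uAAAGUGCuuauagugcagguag
miR-19a-3p: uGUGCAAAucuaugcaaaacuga
miR-19b-3p: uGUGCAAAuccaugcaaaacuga
miR-129-2-3p: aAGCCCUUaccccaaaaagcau
miR-22-3p: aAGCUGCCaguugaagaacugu
miR-7b-5p: uGGAAGACuugugauuuuguuguu

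The 4 let-7 miRNAs, of a family known for promoting differentiation, share a seed but come from different places. The Mirlet7i hairpin lay inside a region on chromosome 10 found in all 8 libraries, whereas the hairpins of let-7a, let-7d and let-7f sit together on chromosome 13, between 7013 and 9171 bp from a region found in 7. The miR-17 cluster, known for promoting progenitor proliferation, began 983 bp from a region on chromosome 14 found in 6 libraries. The region at chr2:94241073-94241945 held the Mir129-2 hairpin inside the lncRNA Mir670hg. By gene annotation alone, Mir124a-3, a gene of the neuronal miR-124, lay inside chr2:180893121-180895037, and Mir125b-2 inside chr16:77645043-77646713. The RNA libraries do not measure mature miRNAs, so no levels can be set beside these sequences.

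The intergenic regions were 779 bp wide at the median, with a range of 210 to 1999 bp. Narrow regions inside genes and more than 5 kb from a gene end (2139 regions) had a median width of 889 bp, and narrow regions within 1 kb of a gene end (11813 regions) one of 926 bp. The median distance to the nearest protein-coding gene was 28.9 kb, and the middle of the distribution ran from 12.3 kb at the lower quartile to 68.2 kb at the upper. There were 276 regions more than 100 kb from a gene and 23 more than 500 kb away. At the 5 kb limit, the closest regions kept lay 5023 bp from Mef2d and 5029 bp from Arhgap40, and the closest left out lay 4998 bp from Pdpr and 4956 bp from Sox8.

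**Figure D1:**
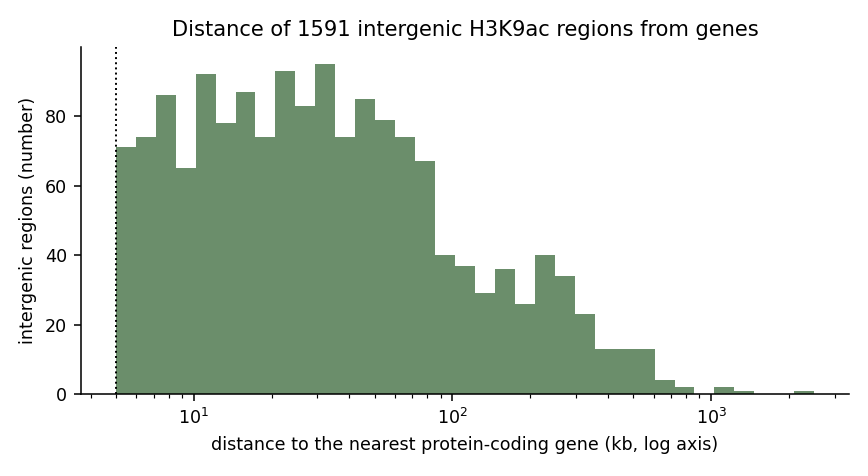
Histogram of the distance in kb (log axis) from each of the 1591 intergenic regions to the nearest protein-coding gene; the dotted line marks the 5 kb limit of the choice. Counts stay similar up to the upper quartile of 68.2 kb and thin out beyond 100 kb, where 276 regions lie.

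The 4 regions farthest from a gene lay on chromosomes 18, 8, 12 and 11. The farthest was 2187.2 kb from Pik3c3 and was found in all 8 libraries. The next, chr8:50915191-50917121, lay 1392.4 kb from Tenm3, which encodes a teneurin that guides axons, and 312 bp from the start of the lncRNA 1700019L22Rik. Those near Gm40892 (1033.5 kb) and Fancl (1029.0 kb) were found in 7 and 6 libraries.

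Some regions lay in dense runs. Of the 1591, 566 had another such region within 10 kb, and 75 runs of 3 or more could be formed by joining regions up to 25 kb apart. The longest run by number held 44 regions in 87.3 kb of chromosome 8 between Gas8 and Rhou, and 29 of them overlapped genes for 5S ribosomal RNA, a repeated array. A run of 21 lay near Hrh1 and Atg7 on chromosome 6, of which 1 region was found in all 8 libraries. A run of 15 lay between Wnt7b, a secreted Wnt ligand of the cortex, and Ppara on chromosome 15, with 7 found in all 8 libraries. Near Mn1, a transcriptional coregulator, 22 regions had it as their nearest gene. Copies of a repeated gene are nearly identical in sequence, and how tags were placed among the 5S copies is not given in the sources used here.

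The number of these regions with a peak differed between libraries. Vehicle replicates 1 to 4 held a peak in 1447, 1500, 1533 and 1001 of them, and TSA replicates 1 to 4 in 1510, 1511, 1271 and 1572. Vehicle 4 was the lowest although it had the most tags, 24075842 against 11824246 to 19920755 in the other 7. It also had the shortest peak list, 22668 peaks against 32248 to 61217. A total of 676 regions were found in all 8 libraries, 447 in 7 and 468 in 6. Among the 915 regions that lacked a peak somewhere, 590 lacked it in Vehicle 4, and 460 lacked it only in Vehicle libraries against 180 only in TSA libraries. What sets the short list of Vehicle 4 was not tested, and leaving that library out gave 2050 regions when 5 of the remaining 7 were required.

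Annotated noncoding genes lay under 668 of the intergenic regions (42.0%). An lncRNA gene lay under 533 (33.5%), a pseudogene under 69 (4.34%), a ribosomal RNA gene under 30 (1.89%), a transfer RNA gene under 22 (1.38%) and a small nuclear RNA gene under 18 (1.13%). Any noncoding gene lay under 11.6% of the narrow regions inside genes and under 11.7% of those at gene ends. An lncRNA start lay within 1 kb of 274 of the 1540 intergenic regions on chromosomes covered by the start table (17.8%, 95% Wilson interval 16 to 19.8%, which treats regions as independent). The same share was 6.87% for narrow regions inside genes and 10.1% for those at gene ends. These shares are a description, since annotated lncRNA genes are themselves unevenly placed between and within protein-coding genes. Terc, the RNA component of telomerase, and Emx2os, the antisense transcript of the cortical patterning gene Emx2, were among the other noncoding genes under a region.

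**Figure D2:**
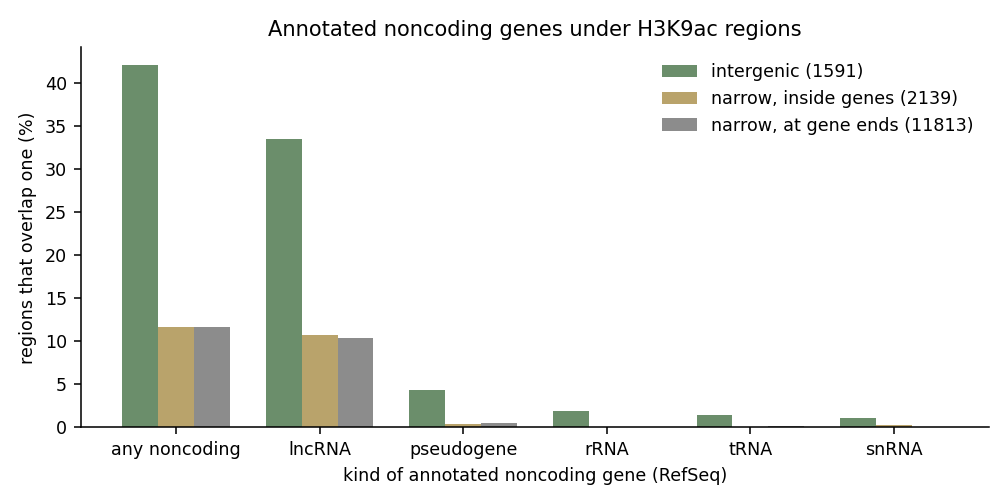
Share of regions (percent, vertical axis) that overlap an annotated RefSeq noncoding gene of each kind, for the 1591 intergenic regions, 2139 narrow regions inside genes and 11813 at gene ends. The bar for any noncoding gene reaches 42.0% for the intergenic regions against 11.6% and 11.7%.

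The starts of lncRNAs inside the regions were richer in G and C than other lncRNA starts. Over 182 start windows of 162 lncRNAs inside regions, the median GC content was 55.67% and the median observed to expected CpG ratio 0.485. Over the 11405 other lncRNA start windows these were 48.33% and 0.242, and over 21263 start windows of protein-coding genes 56.33% and 0.567. A CpG ratio above 0.6 was found in 39.6% of the windows inside regions, in 13.6% of other lncRNA windows and in 47.6% of coding windows. Coding starts inside narrow H3K9ac regions at gene ends (5646 windows) stood higher still. Their median GC content was 60.67%, their median CpG ratio 0.762, and 76.7% had a ratio above 0.6. No test was made, since windows of the same gene overlap.

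Short motifs were counted in the same windows. The GC box occurred in 43.4% of the windows inside regions, 15.9% of other lncRNA windows and 35.7% of all 32851 start windows. The ETS core occurred in 8.24%, 3.82% and 8.86% of these, and the CRE in 3.30%, 0.938% and 1.79%. In coding start windows inside narrow regions at gene ends, the GC box occurred in 65.1%, the ETS core in 22.3% and the CRE in 3.61%. In all coding start windows these shares were 46.2%, 11.6% and 2.23%. The E-box form bound by proneural factors (CAGATG) occurred in 14.8% of the windows inside regions and 22.0% of other lncRNA windows, and the homeodomain core TAATTA in 4.95% and 6.71%. Both strands were searched, and CAGATG is one form of the wider E-box CANNTG, which occurred in 70.3% and 78.5%. A match of letters is not evidence of binding.

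How strong a region was could be compared only by rank, because the fold enrichment over input that the authors' peak caller gave describes each list on its own. The labels name an input sample for each treatment, but all 8 lists were called against 1 control file. Within each library, the mean percentile of a region among all peaks of the list had a median of 55.6 over the 1591 regions. Regions over small nuclear RNA genes had a median of 91.6 (18 regions), those over transfer RNA genes 65.4 (22 regions), those with an lncRNA start within 1 kb 61.4 (274 regions) and those over no annotated gene 52.9 (923 regions). The share found in all 8 libraries followed a similar order, 77.8%, 68.2%, 52.9% and 36.7%.

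The 8 strongest regions averaged between the 98.1 and 99.7 percentile of their lists. The strongest, chr8:19784200-19785738 over the pseudogene Gm10060, had fold enrichments of 19.08, 16.09, 16.51 and 12.10 in Vehicle 1 to 4 and 29.02, 18.44, 17.04 and 31.33 in TSA 1 to 4. The region beside the Malat1 start had 16.58, 15.77, 17.93 and 9.61 in Vehicle and 14.01, 13.35, 9.91 and 20.73 in TSA. Both were thus high in every library, and the values of each list cannot be set against those of another. Of the others, 5 lay near Pdia4, Ptma, Chd2, Nufip1 and Snx6, at 11.3 to 76.8 kb. The one near Snx6 overlapped a small nuclear RNA gene in a run of 6 regions on chromosome 12.

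For the comparison of treatments, regions were ranked within the 12400 that had a peak in all 8 libraries, 676 of them intergenic. The median percentile of the intergenic regions was 22.8, 26.2, 27.0 and 35.0 in Vehicle 1 to 4 and 30.9, 33.6, 36.3 and 28.3 in TSA 1 to 4. The groups overlapped, with Vehicle 4 above 3 of the 4 TSA libraries. The means were 27.77 ± 5.18 (SD, n = 4) in Vehicle and 32.31 ± 3.46 (SD, n = 4) in TSA, a difference of 4.54 percentile points with p = 0.2 by a two-sided exact permutation test, whose smallest possible p is 0.0286. Leaving out Vehicle 4 gave a difference of 6.96 with an exact p of 0.0571, the smallest that 3 against 4 allows, and ranking by pileup gave 0.42 with an exact permutation p of 0.914. A change of the intergenic regions relative to the others was therefore not detectable with these libraries. Ranks cannot show a rise or fall that all regions share.

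**Figure D3:**
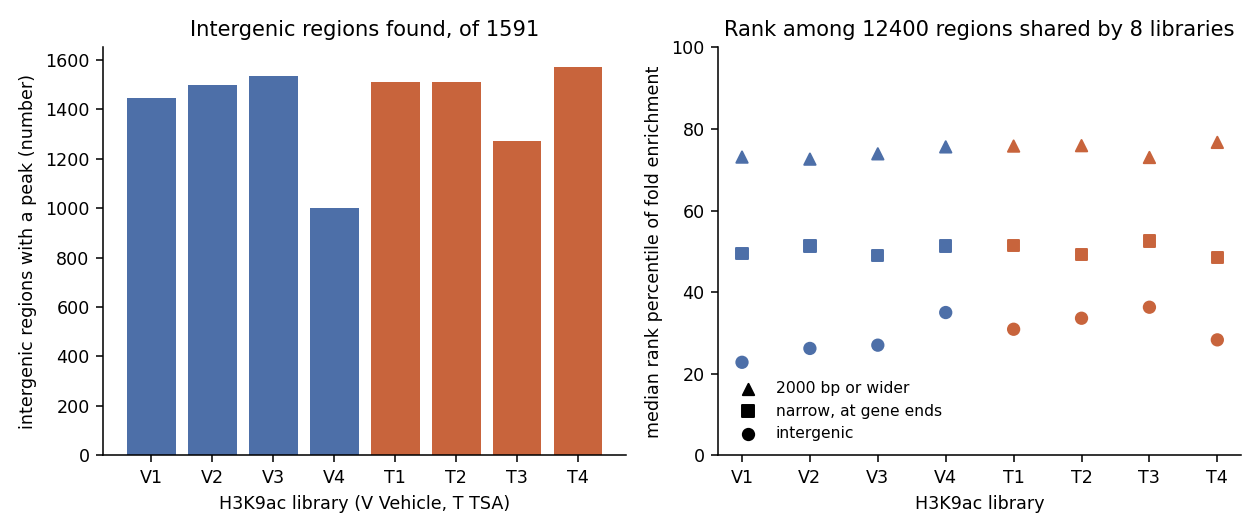
Left, number of the 1591 intergenic regions with a peak in each H3K9ac library (V1 to V4 Vehicle, T1 to T4 TSA); right, median rank percentile of fold enrichment in each library for 3 classes among the 12400 regions shared by 8 libraries. Vehicle 4 holds the fewest regions, 1001, and the intergenic medians of the groups overlap between 22.8 and 36.3.

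Intergenic regions ranked below narrow regions at gene ends in every library, whose median percentile lay between 48.5 and 52.5, and below regions of 2000 bp or more, between 72.6 and 76.7. Narrow regions inside genes had medians between 26.2 and 36.3, equal to the intergenic median in 6 of 8 libraries at the precision of the ranks. Fold enrichments took only 252 to 360 distinct values over the 12400 regions, so many regions were tied. The difference between these 2 classes changed by 0.55 points from Vehicle to TSA (exact permutation p = 1).

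Among single regions, 4 intergenic ones passed limma on rank normal scores (Benjamini-Hochberg adjusted p under 0.05 over all 12400), 3 higher and 1 lower in TSA. Over all 12400 regions the shares called were 0.0565% higher and 0.129% lower. At a limma unadjusted p under 0.05, 33 intergenic regions were higher (4.88% of 676) and 25 lower (3.70%), close to the 4.05% and 4.31% of all 12400 regions.

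The region with the largest rise, chr17:6475914-6477669, lay 31.4 kb from the predicted gene Gm2808. Its percentile was 5.5, 1.4, 51.5 and 31.2 in Vehicle 1 to 4 and 96.2, 99.5, 84.9 and 90.0 in TSA 1 to 4. Every TSA library was above every Vehicle library, and the change was 2.73 ± 0.44 (SE) in normal scores, with a limma adjusted p of 0.000732. It kept its call under each alternative that ranked the same 12400 regions, with adjusted p between 4.71e-05 and 0.0102.

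The second region on chromosome 17, chr17:6489591-6490920, lay 18.2 kb from the same gene, so both share a locus. Its percentile was 2.2, 2.5, 18.7 and 0.6 in Vehicle and 73.2, 95.7, 39.9 and 46.5 in TSA, without overlap of the groups. The change was 2.34 ± 0.46 (SE) with a limma adjusted p of 0.00832. Without Vehicle 4 the adjusted p was 0.0578, and without TSA 2 it was 0.0761.

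The third region that rose, chr12:50119535-50121434, lay 219.8 kb from Prkd1, which encodes a protein kinase, and overlapped the lncRNAs Gm40418 and Gm40419. Its percentile was 0.1, 15.3, 54.5 and 4.7 in Vehicle and 84.1, 88.4, 69.9 and 61.9 in TSA. All TSA libraries were above Vehicle 3, the highest of the Vehicle libraries. The change was 2.18 ± 0.48 (SE) with a limma adjusted p of 0.0415, and the call was lost without any single library other than Vehicle 3, with adjusted p between 0.0638 and 0.19.

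The region that fell, chr3:34196563-34197568, lay 115.2 kb from Dnajc19, which encodes a mitochondrial protein. Its percentile was 35.7, 32.2, 13.6 and 43.8 in Vehicle and 0.2, 0.2, 1.6 and 0.2 in TSA, at the bottom of the ranking in each TSA library. The change was -2.20 ± 0.44 (SE) with a limma adjusted p of 0.0125. The call was lost without Vehicle 1, 2 or 4 or TSA 4, with adjusted p between 0.0541 and 0.0857.

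**Figure D4:**
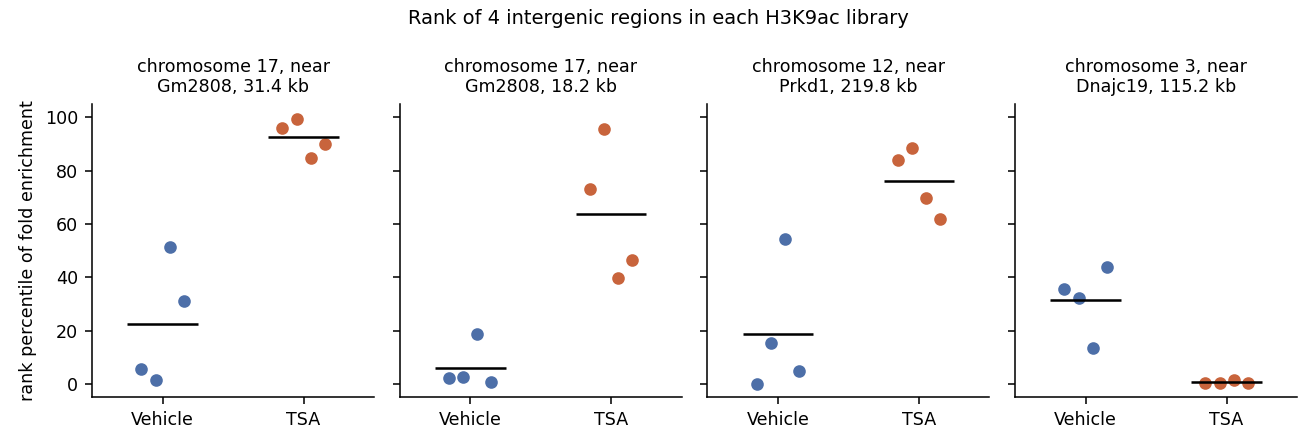
Rank percentile of fold enrichment (vertical axis) in each H3K9ac library for the 4 intergenic regions that passed limma, by treatment; bars are means of 4 libraries. The TSA and Vehicle points do not overlap in any panel, and the region near Dnajc19 sits at 1.6 or lower in all 4 TSA libraries.

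Other regions with a named noncoding gene did not pass. The region over Jpx, an lncRNA that activates Xist, had percentiles of 92.8, 97.9, 73.9 and 97.2 in Vehicle and 51.5, 85.6, 28.0 and 36.3 in TSA, with a change of -1.47 ± 0.40 (SE) and a limma adjusted p of 0.131. The groups overlapped, since TSA 2 was above Vehicle 3. Jpx lies on chromosome X, and the sex of the H3K9ac libraries was not examined here. The region over Mirlet7i had percentiles of 85.1, 90.9, 73.9 and 75.6 in Vehicle and 64.8, 68.5, 36.3 and 44.4 in TSA. These did not overlap, but the limma adjusted p was 0.526. The region over Mir124a-3 lay between 78.1 and 95.8 in all 8 libraries, with overlapping groups.

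RNA was compared for the genes nearest to the regions, which the choice of regions did not use. The 1591 regions had 1021 nearest protein-coding genes, of which 995 matched the count files and 794 passed the filter on low counts. RNA libraries held 6733415 to 20400727 counts. More of the nearest genes rose than fell, 209 (26.3%) against 129 (16.2%) by edgeR's quasi-likelihood test at an adjusted p under 0.05. Over all 15000 tested genes, which include noncoding genes, 15.4% rose and 17.6% fell. The median log2 change was 0.07 for the nearest genes and -0.01 for all genes, so the share that rose stood above the background and the share that fell was close to it. All TSA libraries lay above all Vehicle ones in 25.1% of the nearest genes and below in 16.6%. Over all tested genes these shares were 14.9% and 17.4%.

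The nearest genes also differed from other genes in span and level. Their median genomic span was 32.4 kb against 23.7 kb for other tested genes with a known span, and their median level 44.4 CPM (counts relative to the TMM-scaled size of each library) against 25.7 CPM. Within spans of 30 to 100 kb, 30.2% of 255 nearest genes rose against 20.4% of 3704 other genes. Above 100 kb the shares were 41.5% of 164 and 31.0% of 2011, below 10 kb 19.1% of 157 and 5.55% of 3421, and from 10 to 30 kb 15.6% of 218 and 11.6% of 4278. The share that rose was higher for nearest genes within each bin of span, and also within each of 4 bins of level, from 9.82% against 4.89% below 10 CPM to 44.1% against 31.2% above 100 CPM. More nearest genes rose than fell only above 30 kb of span and above 10 CPM. Below 10 kb 27.4% of nearest genes fell, from 10 to 30 kb 19.7% fell, and below 10 CPM 12.9% fell against 8.93% of other genes. These are descriptions, because neighbouring genes and genes of like function are not independent. The nearest genes are all protein-coding, whereas the other tested genes include noncoding genes. What part this has in the differences was not tested.

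Genes with more regions around them rose in a larger share. Of 91 tested genes nearest to 3 or more regions, 34 (37.4%) rose and 12 (13.2%) fell. Of 570 nearest to 1 region, 134 (23.5%) rose and 96 (16.8%) fell. Among 206 genes more than 50 kb from every region that had them as its nearest gene, 61 (29.6%) rose and 27 (13.1%) fell. No test was made of these differences.

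In the RNA libraries, Xist differed between most TSA and all Vehicle libraries, and the share of mitochondrial reads was highest in Vehicle 1 and 4. Xist, the lncRNA expressed from the inactive X chromosome of female cells, stood at 3090, 2071, 1768 and 3118 CPM in Vehicle 1 to 4 and at 0.305, 1.47, 0.494 and 2327 CPM in TSA 1 to 4, so 3 TSA libraries lacked it and no Vehicle library did. With Xist status as a covariate, chosen after seeing the data, 90 nearest genes rose (11.3% of 794, against 5.05% of all tested genes) and 33 fell (4.16% against 5.45%). Its part in the result cannot be told apart from treatment except through TSA 4, so a call lost in that fit does not show that the change depends on Xist status. Mitochondrial reads made up 1.60 to 3.36% of counts in Vehicle and 1.48 to 1.71% in TSA, so the groups overlapped. Their part was not tested. Without Vehicle 1 and 4, the richest in them, 165 nearest genes rose (20.6%, against 14.4% of all tested genes) and 146 fell (18.2% against 15.9%), so in that fit the share that fell was above the background too.

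The labelled tissue was checked with marker lists, in CPM over the whole library without TMM scaling. The summed level of 11 cortical markers was 1991 to 2764 CPM in Vehicle and 3096 to 3559 CPM in TSA, although the means of Pax6 (318 and 106 CPM) and Emx2 (46.2 and 37.7 CPM) were lower in TSA. The sum of 5 ganglionic eminence markers was 594 to 718 CPM in Vehicle and 318 to 459 CPM in TSA. Most of that sum was Dlx1, with a mean of 476 CPM in Vehicle and 205 CPM in TSA, and the means of Lhx6 (81.9 and 113 CPM) and Nkx2-1 (3.67 and 16.2 CPM) were higher in TSA. Of 6 markers from outside the forebrain, Hoxa5, Hoxb4 and Hoxd4 were listed at 0 in all 8 libraries, and the sum was at most 2.64 CPM. The 6 microglial markers summed to 34.1 to 47.3 CPM in Vehicle and 27.7 to 37.2 CPM in TSA. The 4 erythroid markers summed to 133 to 316 CPM in Vehicle and 87.2 to 119 CPM in TSA without overlap, most of it the globin Hbb-bs. The 6 endothelial and 5 meningeal sums overlapped between the groups. What part these shifts have in the results was not tested. In bulk tissue, fewer cells of a type and less RNA per cell cannot be told apart.

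Nearest genes known as markers of excitatory cortical neurons moved together. Of the 32 genes of that list, 14 were nearest to a region, and 13 of the 14 rose while Zbtb18 did not pass (edgeR adjusted p = 0.0761, DESeq2 adjusted p = 0.0223). In the whole list 25 of 32 rose and 4 fell, so the nearest genes followed the list they came from. Pou3f2, which encodes a POU factor of upper-layer neurons, had 103, 126, 112 and 100 CPM in Vehicle and 195, 229, 169 and 229 CPM in TSA. All TSA libraries were above all Vehicle ones, and Pou3f2 rose by 0.89 ± 0.11 on the log2 scale (edgeR adjusted p = 8.14e-05). Neurod2, a bHLH factor of young neurons with 2 regions nearest to it, rose from 309, 258, 244 and 214 CPM to 505, 452, 362 and 499 CPM. Mdga1, an adhesion protein gene of upper layers, rose by 0.90 ± 0.12 (edgeR adjusted p = 9.50e-05).

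Of 41 forebrain progenitor and patterning factors, 20 were nearest to a region, of which 11 rose and 3 fell. In the whole list 21 of 41 rose and 6 fell, which is close to the share among the nearest genes. Gli3, the Hedgehog pathway repressor that patterns the dorsal forebrain, had 56.9, 93.3, 49.2 and 48.3 CPM in Vehicle and 119, 110, 123 and 123 CPM in TSA. The lowest TSA library was above the highest Vehicle library, and Gli3 rose by 0.93 ± 0.18 (edgeR adjusted p = 0.00151). The 3 that fell were Tshz1, Meis1 and Sox1, of which Sox1 lost its call without Vehicle 3, TSA 1 or TSA 2 (edgeR adjusted p up to 0.0789). Meis1, a homeodomain factor, fell from 16.7 to 29.3 CPM in Vehicle to 10.8 to 14.1 CPM in TSA, and Tshz1, a zinc finger factor of the ventral forebrain, from 102 to 159 CPM to 73.9 to 86.4 CPM. With Xist status as a covariate Meis1 was at -0.77 against -0.84 without it (edgeR adjusted p = 0.0864), and Tshz1 at -0.67 against -0.69 (adjusted p = 0.0561). Sox1 in that fit was at -0.36, against -0.40 without the covariate (edgeR adjusted p = 0.284).

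Signalling genes near the regions mostly rose. Of 53 genes in that list, 10 were nearest to a region. Of these, 7 rose and Wnt7a fell. Wnt7a lost its call without Vehicle 3, Vehicle 4, TSA 2, TSA 3 or TSA 4 (edgeR adjusted p up to 0.116). It also lost the call with sequencing lane (adjusted p = 0.0656) or Xist status (adjusted p = 0.39) as a covariate. Wnt7b, with 9 regions nearest to it, had 133, 139, 131 and 94.8 CPM in Vehicle and 226, 214, 191 and 199 CPM in TSA, a rise of 0.73 ± 0.11 (edgeR adjusted p = 0.000326). Notch3, a receptor, rose by 0.58 ± 0.09 and Gas1, a Hedgehog coreceptor, by 0.77 ± 0.13, without overlap of the groups. In the whole list 25 of 52 tested genes rose and 5 fell.

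Genes of the ganglionic eminence and striatum went the other way. Of 30 genes, 4 were nearest to a region, and 3 of them fell: Gsx2, Dlx2 and Dlx6, transcription factors of the ventral forebrain. Gsx2 had 10.6, 12.1, 9.71 and 8.15 CPM in Vehicle and 0.915, 2.09, 2.42 and 3.0 CPM in TSA, and fell by 2.18 on the log2 scale with an SE of 0.24 (edgeR adjusted p = 4.20e-05). All TSA values lay below all Vehicle values. Dlx2, with 3 regions, fell from between 72.7 and 98.5 CPM to between 29.7 and 60.8 CPM. In the whole list 18 of 30 fell and 3 rose, so these genes followed the list they came from. With Xist status as a covariate Dlx2 was at -0.43 against -0.89 without it (edgeR adjusted p = 0.217), and Dlx6 at -0.93 against -1.21 (adjusted p = 0.165).

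The remaining lists had few members among the nearest genes. In the list of basal progenitor and proneural genes, 3 of 21 were nearest to a region; Neurog1 and Rnd2 rose and Btg2 did not pass, and in the whole list 10 rose and 3 fell. Rnd2, which encodes a small GTPase, rose by 0.32 ± 0.10 (edgeR adjusted p = 0.0258), and leaving out Vehicle 3, TSA 1 or TSA 4 ended the call (adjusted p from 0.0624 to 0.0985). Rnd2 was at 0.49 with Xist status as a covariate (edgeR adjusted p = 0.0592). Of Cajal-Retzius and cortical hem genes, Lhx1 and Lhx5 were nearest to a region, with log2 changes of -0.08 ± 0.19 and -0.05 ± 0.21. Tenm3, the axon guidance gene, rose by 0.65 ± 0.11 (edgeR adjusted p = 0.000617). In its whole list of axon guidance and adhesion genes 12 of 51 rose and 3 fell. Dcn, a meningeal gene, and Atp5g3, a subunit of ATP synthase, fell, and Sox17, an endothelial gene, did not pass. Of the regions with these as nearest gene, the closest lay 165635 bp from Dcn and 216648 bp from Atp5g3. In the whole lists, 11 of 32 tested microglial, endothelial, erythroid and meningeal genes fell, and 34 of 40 respiratory chain and ribosomal protein genes fell. Hoxc4, the Hox gene nearest to a region, did not pass the filter on low counts.

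Of single genes, Neurog1 rose most among nearest genes chosen by size of change. Neurog1, a proneural bHLH factor with 2 regions nearest to it and the closest 6403 bp away, had 0.963, 1.10, 0.758 and 0.633 CPM in Vehicle and 7.93, 6.55, 7.11 and 8.13 CPM in TSA. The groups did not overlap, which the choice required, and the rise was 3.08 ± 0.23 on the log2 scale (edgeR adjusted p = 1.36e-06). Sema5a, a semaphorin, rose from 43.2 to 55.3 CPM in Vehicle to 121 to 129 CPM in TSA, and Nos1, neuronal nitric oxide synthase, from 33.1 to 62.6 CPM to 137 to 182 CPM. Prex1, a Rac exchange factor, and Foxo6, a forkhead factor with 6 regions nearest to it, rose by 1.26 ± 0.12 and 1.09 ± 0.14. The other 5 of the 10 largest rises were Ccl28, Onecut3, Foxj1, Mid1 and Itprid1. Mid1 is on chromosome X. With Xist status as a covariate Onecut3 was at 2.61 against 2.53 without it (edgeR adjusted p = 0.078), and Foxj1 at 0.95 against 1.25 (adjusted p = 0.112).

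The 10 largest falls were Gsx2, Msx3, Dlx6, Strip2, Slc38a4, Ly86, Rnf7, Crabp2, Dcn and Mis18a. Rnf7, a subunit of cullin ubiquitin ligases, had 54.9, 48.2, 54.9 and 67.2 CPM in Vehicle and 21.3, 24.8, 29.3 and 25.8 CPM in TSA, a fall of -1.14 ± 0.12 (edgeR adjusted p = 3.57e-05). Mis18a, a centromere factor, fell from between 23.8 and 30.1 CPM to between 10.4 and 14.7 CPM. Msx3, a homeodomain factor of the neural tube, fell from between 3.58 and 6.06 CPM to between 0.791 and 1.68 CPM. Of these, 6 (Dlx6, Strip2, Slc38a4, Ly86, Crabp2 and Dcn) had edgeR adjusted p between 0.0604 and 0.237 with Xist status as a covariate. Their log2 changes in that fit were between -0.93 and -1.50, against -1.11 to -1.21 without the covariate.

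Of the 6 genes with the most regions nearest to them, 2 rose. Mn1, with 22 regions, rose from 150, 174, 176 and 122 CPM in Vehicle to 236, 265, 199 and 268 CPM in TSA, by 0.64 ± 0.13 (edgeR adjusted p = 0.00162). Sept9, a septin, with 11 regions, rose by 0.31 ± 0.10 (edgeR adjusted p = 0.0311), but the groups overlapped and the call was lost when any of 6 single libraries was left out, with adjusted p up to 0.0873. Without Vehicle 1 and 4 the change of Sept9 was 0.16 (edgeR adjusted p = 0.171). It was 0.37 with Xist status as a covariate (adjusted p = 0.182). Gas8 with 28 regions, Rhou with 16, Hrh1 with 11 and Atg7 with 10 had log2 changes between 0.16 and 0.23 that did not pass, and Hrh1 was at 1.23 CPM or lower in every library. The 44 regions nearest to Gas8 or Rhou are those of the run that holds the 5S array.

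**Figure D5:**
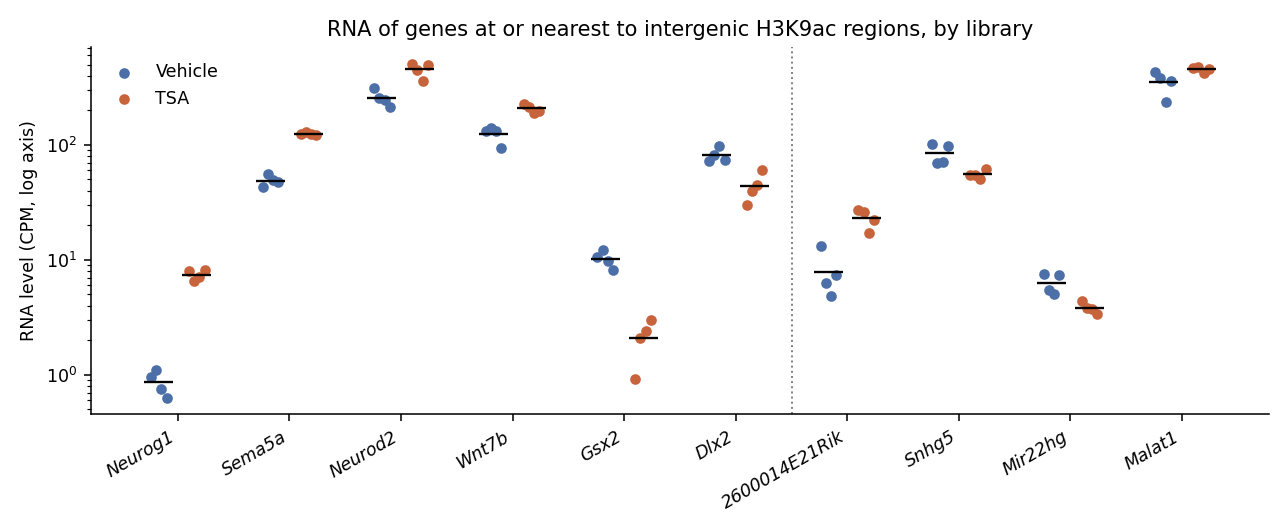
RNA level in CPM (log axis) in each Vehicle and TSA library for 6 genes nearest to intergenic regions (left of the dotted line) and 4 lncRNAs that start within 1 kb of one (right); bars are means of 4 libraries. Neurog1 and 2600014E21Rik sit higher in all TSA libraries, Gsx2 and Snhg5 lower, and the Malat1 libraries overlap.

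Trnp1 and Smarcc1, named in the title and genotype of the study, and the progenitor regulators Eomes and Pax6 had no such region nearest to them. Trnp1, a nuclear factor tied to basal progenitors, had 14.7, 14.1, 12.3 and 12 CPM in Vehicle and 17.7, 14.2, 13 and 13.9 CPM in TSA, with overlapping groups and a log2 change of 0.13 ± 0.13 (edgeR adjusted p = 0.499). Eomes, the basal progenitor regulator, rose by 2.09 ± 0.15 and Pax6, the radial glial regulator, fell by 1.54 with an SE of 0.12. Smarcc1, which encodes BAF155, was at 124 to 148 CPM in Vehicle and 118 to 144 CPM in TSA; both groups carry the knockout, and counts per gene do not show the deleted exons.

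LncRNAs that start at the regions mostly did not pass the test. Of 240 lncRNAs starting within 1 kb, 114 matched the count files and 67 passed the filter; 2 rose (2.99%) and 9 fell (13.4%), against 15.4% and 17.6% of all tested genes. Their median log2 change was -0.26, against -0.01 over all genes, and their median level was 5.45 CPM. Among tested genes below 10 CPM that are not nearest to a region, 4.89% rose and 8.93% fell, and from 10 to 50 CPM 12.6% rose and 23.7% fell. Some of the 67, such as Snhg5 and Malat1, lay above 10 CPM, so neither bin is of like level for all of them. No test was made of these shares. The library kit (TruSeq v2) keeps no strand information, so reads of an lncRNA and an overlapping antisense gene cannot be told apart.

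The 2 that rose were 2600014E21Rik and AU020206. The RNA of 2600014E21Rik was at 13.1, 6.32, 4.89 and 7.36 CPM in Vehicle and 27.3, 26.3, 17.2 and 22.2 CPM in TSA. The lowest TSA library exceeded the highest Vehicle library, and the rise was 1.54 ± 0.25 on the log2 scale (edgeR adjusted p = 0.000577). Its region, whose start window is printed above, had no peak in Vehicle 1 and Vehicle 4 and a peak in the other 6 libraries. Of all 1591 regions, Vehicle 1 lacked a peak in 144 and Vehicle 4 in 590. AU020206 rose from between 4.13 and 8.39 CPM to between 11.3 and 14.1 CPM, by 0.96 ± 0.19.

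Snhg5, the small nucleolar RNA host, was the most abundant of those that fell. It had 102, 70.0, 71.4 and 98.1 CPM in Vehicle and 55.2, 54.2, 50.02 and 61.7 CPM in TSA, all TSA libraries below all Vehicle ones, with a log2 change of -0.63 ± 0.13 (edgeR adjusted p = 0.00200). Its region ranked at percentiles 85.1, 88.8, 77.7 and 87.0 in Vehicle and 87.4, 68.5, 89.4 and 84.3 in TSA, where the groups overlapped and the rank change was -0.07 ± 0.35 (limma adjusted p = 0.984). Mir22hg fell from 7.49, 5.41, 5.03 and 7.36 CPM to 4.42, 3.84, 3.70 and 3.38 CPM, by -0.74 ± 0.20 (edgeR adjusted p = 0.00994). Its region had a rank change of 0.55 ± 0.41 (limma adjusted p = 0.788). With Xist status as a covariate Snhg5 was at -0.47 (edgeR adjusted p = 0.17) and Mir22hg at -0.90 (adjusted p = 0.1). Without Vehicle 1 and 4 the changes were -0.36 and -0.47, with adjusted p of 0.0133 and 0.114.

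The largest falls were of low lncRNAs. Gm26644 fell by 2.09 on the log2 scale with an SE of 0.40 from between 1.44 and 5.16 CPM to between 0.565 and 1.22 CPM, and 2310040G24Rik by 1.27 with an SE of 0.35. With Xist status as a covariate Gm26644 was at -2.34 (edgeR adjusted p = 0.0548). Gm20754 had a log2 change of -1.39 ± 0.46 (edgeR adjusted p = 0.0319), its groups overlapped, and limma-voom gave an adjusted p of 0.0624. Malat1 had 431, 384, 235 and 362 CPM in Vehicle and 462, 476, 422 and 459 CPM in TSA, with a log2 change of 0.36 ± 0.15 that did not pass (edgeR adjusted p = 0.0706). It passed with DESeq2 (adjusted p = 0.0359), and in edgeR without a filter (adjusted p = 0.00951), with the replicate block (0.00868), without Vehicle 1 (0.0235) and without Vehicle 1 and 4 (0.0358). Chaserr had a log2 change of -0.30 ± 0.16 (edgeR adjusted p = 0.183), and its region a rank change of -0.42 ± 0.45 (limma adjusted p = 0.877).

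Ranks of the regions were set beside the RNA of their nearest genes. Of the 676 regions found in all 8 libraries, 161 had a nearest gene that rose, and 99 of these (61.5%) had a higher rank in TSA. The 77 regions nearest to a gene that fell had a higher rank in TSA in 38 cases (49.4%), and the 292 nearest to a tested gene that did not pass in 151 (51.7%). For the 146 regions whose nearest gene was not tested the count was 91 (62.3%), about the same as beside genes that rose. Over all 676 regions 56.1% had a higher rank in TSA, and over all 12400 regions 50.3%. The median rank changes were 0.126 beside genes that rose, -0.017 beside genes that fell, 0.034 beside genes that did not pass and 0.125 beside untested genes, in normal scores. Over all 676 the median was 0.092, and over all 12400 regions 0.004. Regions with the same nearest gene are not independent, so no test was made.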

How the data were processed

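The authors deposited unnormalized counts of reads for each Ensembl gene, 1 file per RNA library. H3K9ac files are peak lists that the authors called per library with MACS2 2.1.0.20140616 at a q-value limit of 0.1 against the same input of 18937878 tags, per the file headers. An input of either treatment is listed in the labels, and whether that control holds one or both is not given in the sources used here. The deposited columns hold the pileup signal, the fold enrichment (a ratio) and −log10 p-value and q-value of each peak. Per the submitters' processing notes, files use mm10 and SAMtools was among the tools; aligner, counting program and gene annotation: not given in the sources used here. Total counts ran from 6733415 to 20400727 per library, and tags from 11824246 to 24075842.

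Peaks were merged, and genes, starts and miRNAs taken from RefSeq (GRCm38.p6). RNA was tested in R 4.3.3 with edgeR 4.0.16 (filterByExpr, TMM, quasi-likelihood, robust), ranks with limma 3.58.1 on normal scores, both with Benjamini-Hochberg adjustment, and median percentiles with two-sided exact permutation tests. Scripts were tested on simulated data. No replicates agreed within sampling noise. Members and lists were chosen with earlier results of these data known. Named regions were the 8 strongest, the 4 farthest, those called and those at the limit. Named genes were the 10 largest non-overlapping rises and falls, the 6 with most regions, up to 3 per list, 4 genes of the study and the 3 largest lncRNA changes each way; other lncRNAs, Jpx, miRNA genes, Sox1, Wnt7a, Zbtb18 and other genes named to complete a count were named after their values were seen. A few genes and regions that these rules reach are not reported here. Alternatives covered scaling, tools, filters, covariates, region rules and each library left out.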

Additional observations from a re-analysis of the deposited data

Results flagged for a closer look

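In 10 of 132 groups of 4 libraries checked, the highest or lowest library stood far from the other 3 by Dixon's criterion, which chance alone meets in about 5% of groups. Vehicle 4 held a peak in 1001 of the intergenic regions where the other Vehicle libraries held 1447 to 1533, and its list had 22668 peaks against 41331 to 43645.

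The other 8 were single genes or regions. In Vehicle, Tenm3 was at 77.9 CPM in 1 library against 110 to 116 CPM in the others, and the second chromosome 17 region (nearest to Gm2808) ranked at percentile 18.7 in 1 library against 0.6 to 2.5. In TSA, Ly86 was at 1.37 CPM in 1 library against 1.09 to 1.13 CPM, and Pax6 at 123 CPM against 100 to 104 CPM. The lowest TSA values were 0.915 CPM for Crabp2 against 1.78 to 1.86 CPM, 10.8 CPM for Meis1 against 14 to 14.1 CPM, and 67.4 CPM for Btg2 against 78.9 to 80.1 CPM. The region near Dnajc19 ranked at percentile 1.6 in 1 TSA library against 0.2 in the others.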

How the results depend on the processing

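The number of intergenic regions was 676 when a peak in all 8 libraries was required, 973 beyond 20 kb from a gene, 674 when noncoding genes counted as genes, and 1651 to 2050 without each library in turn. Median rank differences kept their direction under every alternative run, with values from 0.42 (pileup) to 6.96 percentile points. Alternatives that left out a library or used the replicate block could not pass at 0.05. The smallest exact permutation p they allow is 0.0571 and 0.125, respectively. The other alternatives could have passed and did not. Single regions called higher numbered 1 to 3, and called lower 0 to 2, without each library in turn; ranking by −log10 q gave 5 higher, and a −log10 q minimum of 2 gave 0 lower, with 23 of 613 lower at an unadjusted p under 0.05 (3.75%, against 4.33% of all regions ranked). Nearest genes that rose and fell numbered 126 and 83 beyond 20 kb and 111 and 63 for regions found in all 8 libraries, where fewer genes were tested (473 and 396), and 90 and 33 with Xist status as a covariate. Nearest genes by start site gave 166 and 110 of 670 tested, from a start table that does not hold every gene. In the main fit 15.4% of all tested genes rose and 17.6% fell. The share of regions with an lncRNA start was 25.6% within 5 kb and 22.2% for regions found in all 8 libraries.

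The labels do not say whether replicate numbers pair the samples. Deviations of same-numbered libraries from the means of their groups correlated at 0.07 to 0.111 in RNA and -0.046 to 0.027 in ranks. By these deviations, 2 of 4 RNA pairs and 1 of 4 rank pairs correlated best with their own number. These values do not settle whether samples were paired. With the replicate block, 225 nearest genes rose (28.3%, against 17.3% of all tested genes) and 138 fell (17.4% against 18.3%), 4 regions ranked higher and 1 lower, and the median rank difference of 4.54 had an exact sign-flip permutation p of 0.25, where the smallest possible is 0.125.

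Of 943 values of 59 named genes under alternatives, 874 kept direction and call, 45 lost the call, 10 gained it and 14 reversed. The reversals were of 5 genes that did not pass. Hrh1 ran from -0.84 to 0.67 without each library, and was -0.031 with the replicate block, -0.18 without Vehicle 1 and 4 and -1.99 with Xist status. Lhx1 ran from -0.30 to 0.011 without each library and was 0.12 without Vehicle 1 and 4, and Lhx5 from -0.32 to 0.066 and 0.020. Smarcc1 ran from -0.094 to 0.003 and was 0.083 with Xist status. Chaserr was at 0.074 without Vehicle 1 and 4. The causes of these shifts were not tested. GC content of windows at peak summits was not run, since no genome sequence was used here. Alternatives with Xist status, without Vehicle 1 and 4, and without regions over rRNA, tRNA or snRNA genes were chosen after seeing the data.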
